A study of Mus musculus with 11 samples.

Results

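Hedgehog signalling runs from a secreted ligand to a small set of transcription factors. Without ligand, the receptor Ptch1 holds the membrane protein Smo inactive, and the Gli factors are kept off or processed to repressors at the primary cilium. Ligand binding, helped by the co-receptors Boc, Gas1 and Cdon, releases Smo and lets the Gli factors act on genes that include Gli1 and Ptch1 themselves. In the skeleton, Ihh is the main ligand: it comes from prehypertrophic chondrocytes, sets the pace of cartilage growth with Pthlh and is needed for the formation of osteoblasts in developing long bones. Gli1 also marks stromal progenitor cells of bone.

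The genes described here are 9 members of this pathway, namely the ligand Ihh, the receptor Ptch1, the co-receptors Boc and Gas1, the transducer Smo, the transcription factors Gli1, Gli2 and Gli3, and the inhibitor Hhip. They were taken by symbol from the 22600 genes of the merged count table, in which all 9 had a row. RNA of whole distal tibiae was sequenced from 4 Control mice, whose genotype is given as BMAd-WT, and from 7 mice of the BMAd-DTA genotype. Each mouse gave 1 library. The mice were 24 weeks old, of the C57BL6/SJL strain, fed ad libitum and otherwise untreated. By the study's methods, mice of both groups carried Osterix-FLPo and the FLPo-dependent Adipoq-Cre allele FAC, which together give Cre in bone marrow adipocytes (BMAds), and BMAd-DTA mice also carried ROSA-DTA, in which Cre removes a stop cassette and the diphtheria toxin A chain then kills the cell. The Cre also reaches a small subset of marrow adipogenic lineage precursors, and mice with this Cre have low adiponectin, so that feature is shared by the controls. The comparison asks how the bone's expression of these genes differed when BMAds were depleted.

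Libraries held 16969529 to 18637663 read pairs assigned to genes of the table. Levels are given as CPM, the share of a library's counts scaled to a fixed total, on library sizes scaled by the trimmed mean of M values. Bone markers were abundant in every library, with Col1a1, the main collagen of bone, at 1245 to 6226 CPM in controls and 7609 to 18040 CPM in BMAd-DTA mice. Adipoq, the adiponectin gene, spanned 28.5 to 209 CPM in controls and 7.19 to 115 CPM in BMAd-DTA mice, so that this transcript was present in both groups. By the paper, marrow adipogenic lineage precursors express Adipoq too, so its level is not that of adipocytes alone. Fold changes and tests compare BMAd-DTA with Control by edgeR's quasi-likelihood test, with the Benjamini-Hochberg adjustment over all 16496 genes that passed the filter on low counts. All 9 members passed it. The labels give no sex. The study's legend for its figure with the distal tibia RNA-Seq, whose group sizes match these, describes the mice as male. Against that, Xist, which is expressed from the inactive X chromosome of females, was counted 13810 to 20260 times in each library. Together, 4 genes of the Y chromosome had 0 to 1 counts. By these counts every library came from a female mouse, contrary to the legend.

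Each of the 9 members had a positive log2 fold change, in a table where 50.4% of the genes tested did. The median over the members was 0.24, and over all genes tested it was 0.0018. None of the 9 passed an adjusted p of 0.05, a threshold that 0.0788% of all genes passed. At an unadjusted p under 0.05, 5 of the 9 were higher in BMAd-DTA mice (Ihh, Smo, Gli1, Boc and Gas1) and 0 were lower, against 7.89% of all genes higher and 8.53% lower. Only Gas1, among the members, had every BMAd-DTA library above every Control library, as 1.78% of the genes tested did. No member had every BMAd-DTA library below every Control library, which held for 1.04%. DESeq2, the tool of the study's own analysis, called 5.42% of the genes it adjusted, and 2 of the 9 members, Boc and Gas1. In bulk RNA, fewer cells of a type and less RNA per cell cannot be told apart, and this holds for every difference given here.

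**Figure D1:**
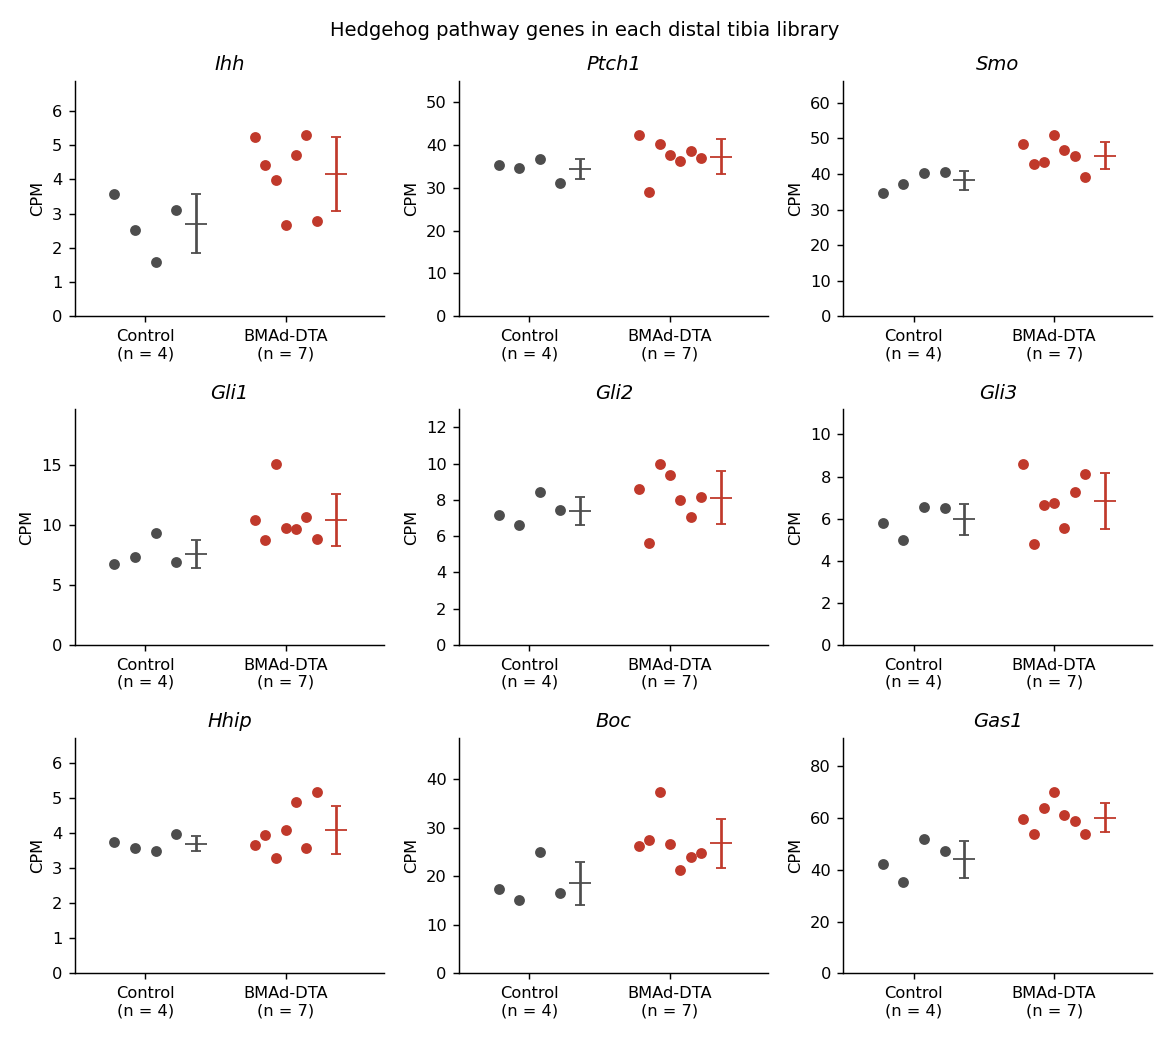
CPM of the 9 Hedgehog pathway genes in each library (points; y axis from 0, a scale of its own for each gene), with the mean and SD of each group beside them, for 4 Control and 7 BMAd-DTA mice. The groups are apart only for Gas1, whose highest control lies at 51.6 CPM and lowest BMAd-DTA mouse at 53.8 CPM, and 1 BMAd-DTA library stands above the others for Gli1 (15.1 CPM) and Boc (37.3 CPM).

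The ligand Ihh (ENSMUSG00000006538.12; chromosome 1, 74945315 to 74951672, minus strand, GRCm38) was a gene of low counts, with 27 to 90 read pairs per library. Its level was 3.58, 2.53, 1.60 and 3.11 CPM in the 4 controls. In the 7 BMAd-DTA mice the lowest value was 2.68, the median 4.41 and the highest 5.28 CPM. The groups overlapped, because 2 BMAd-DTA mice lay below the highest control. The log2 fold change was 0.61 (SE 0.26; 95% interval 0.051 to 1.18), a 1.53-fold higher level, with an unadjusted p of 0.0349 and an adjusted p of 0.259 by edgeR. Without Control replicate 3, the control with the lowest Ihh level, the log2 fold change was 0.43, with an unadjusted p of 0.109 by edgeR.

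The other ligands were near the limit of detection in this tissue. Shh, best known from limb and neural patterning, had 13 read pairs over all 11 libraries and did not pass the filter. Dhh, known from Schwann and Leydig cells, had 109 read pairs in all, with 0.577 ± 0.343 CPM in controls (SD, n = 4) and 0.548 ± 0.277 CPM in BMAd-DTA mice (SD, n = 7). Its log2 fold change was -0.09 with an SE of 0.59, so only a large difference could have been seen at this depth. Pthlh, the partner of Ihh in the growth plate, was at 1.10 ± 0.513 CPM in controls and 1.31 ± 0.355 CPM in BMAd-DTA mice, with a log2 fold change of 0.26 and an adjusted p of 0.763 by edgeR.

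Ptch1 (ENSMUSG00000021466.12; chromosome 13, 63508328 to 63573598, minus strand) is the ligand's receptor and at the same time a common readout of the pathway. Its level was 35.3, 34.6, 36.5 and 31.2 CPM in the controls. In BMAd-DTA mice the lowest was 29.1, the median 37.5 and the highest 42.1 CPM. The BMAd-DTA range enclosed that of the controls on both sides. The log2 fold change was 0.11 (SE 0.092; 95% interval -0.086 to 0.31; adjusted p 0.593 by edgeR), so a difference of up to 0.31 on the log2 scale lies within the interval.

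The co-receptor Gas1 (ENSMUSG00000052957.8; chromosome 13, 60174405 to 60177365, minus strand) is a membrane-anchored protein that binds ligand together with Ptch1. Its level was 42.1, 35.2, 51.6 and 47.1 CPM in the controls. In BMAd-DTA mice the lowest was 53.8, the median 59.6 and the highest 69.8 CPM. All 7 BMAd-DTA libraries stood above all 4 controls, although the gap between the groups was narrow. The log2 fold change was 0.45 (SE 0.10; 95% interval 0.23 to 0.67), a 1.37-fold higher level. The unadjusted p of 0.000775 ranked 176 among the 16496 genes tested, and the adjusted p was 0.0720 by edgeR. The call depended on the tool, as the adjusted p was 0.00365 by DESeq2 and 0.0403 by limma-voom with quality weights. It also depended on Control replicate 3, the control with the highest Gas1 level. Without that library edgeR gave a log2 fold change of 0.54 and an adjusted p of 0.0393. That fit called 292 of 16757 genes tested, against 13 of 16496 with all libraries.

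Boc (ENSMUSG00000022687.12; chromosome 16, 44485049 to 44558897, minus strand) is a co-receptor of the immunoglobulin superfamily. Its level was 17.3, 15.1, 25.1 and 16.6 CPM in the controls. In BMAd-DTA mice the lowest was 21.4, the median 26.2 and the highest 37.3 CPM. Control replicate 3 lay within the BMAd-DTA range, and the other 3 controls lay below all BMAd-DTA mice. The log2 fold change was 0.53 (SE 0.16; 95% interval 0.19 to 0.88), a 1.45-fold higher level, with an unadjusted p of 0.00541 and an adjusted p of 0.125 by edgeR. DESeq2 gave an adjusted p of 0.0296. Without Control replicate 3 the log2 fold change was 0.72 with an adjusted p of 0.0437 by edgeR, in a fit that called 292 genes in all. Without BMAd-DTA replicate 3 the log2 fold change was 0.44.

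Cdon, a close relative of Boc with the same role, gave a smaller difference than either co-receptor above. It was at 36.8 ± 7.20 CPM in controls and 38.0 ± 5.35 CPM in BMAd-DTA mice, with a log2 fold change of 0.05 (SE 0.13) and an adjusted p of 0.907 by edgeR. Whether its fold change differs from those of Boc and Gas1 was not tested.

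Smo (ENSMUSG00000001761.7; chromosome 6, 29735503 to 29761365, plus strand) passes the signal from the receptor to the Gli factors. Its level was 34.8, 37.3, 40.3 and 40.4 CPM in the controls. In BMAd-DTA mice the lowest was 39.1, the median 45.0 and the highest 50.9 CPM. The overlap came from 1 BMAd-DTA mouse, which lay below 2 controls, while the other 6 exceeded all 4 controls. By edgeR the log2 fold change was 0.24 (SE 0.079; 95% interval 0.071 to 0.41), a 1.18-fold higher level, with an unadjusted p of 0.00907 and an adjusted p of 0.149.

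Of the transcription factors, Gli1 (ENSMUSG00000025407.7; chromosome 10, 127329882 to 127341974, minus strand) acts as an activator and is itself induced by the pathway. Its level was 6.72, 7.36, 9.34 and 6.90 CPM in the controls. In BMAd-DTA mice the lowest was 8.77, the median 9.72 and the highest 15.1 CPM. Control replicate 3 again lay within the BMAd-DTA range, above 2 of those mice, and the other 3 controls were below all of them. For Gli1, the log2 fold change was 0.46 (SE 0.16; 95% interval 0.12 to 0.81), a 1.38-fold higher level, with an unadjusted p of 0.0129 and an adjusted p of 0.17 by edgeR. It was 0.35 without BMAd-DTA replicate 3, the highest library.

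Gli2 (ENSMUSG00000048402.14; chromosome 1, 118834132 to 119053619, minus strand) is the main activator in many tissues. It was at 7.16, 6.60, 8.45 and 7.41 CPM in controls, and in BMAd-DTA mice the lowest was 5.62, the median 8.15 and the highest 9.99 CPM. The BMAd-DTA range enclosed the controls, and the log2 fold change was 0.13 (SE 0.15; 95% interval -0.198 to 0.46; adjusted p 0.727 by edgeR).

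Gli3 (ENSMUSG00000021318.15; chromosome 13, 15463235 to 15730026, plus strand) serves mostly as the repressor. It was at 5.79, 5.01, 6.56 and 6.48 CPM in controls, and in BMAd-DTA mice the lowest was 4.81, the median 6.72 and the highest 8.60 CPM. Here too the controls lay inside the BMAd-DTA range, with a log2 fold change of 0.19 (SE 0.17; 95% interval -0.166 to 0.55; adjusted p 0.618 by edgeR). The intervals of Gli2 and Gli3 include 0. That of Gli3 also includes the log2 fold change of 0.463 found for Gli1, which lies just above the upper limit of Gli2 (0.461). Whether the fold changes of the 3 factors differ was not tested.

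Hhip (ENSMUSG00000064325.4; chromosome 8, 79965851 to 80058006, minus strand) binds ligand at the cell surface and damps the signal, and in many tissues it is induced by the pathway. It was at 3.75, 3.59, 3.49 and 3.99 CPM in controls. In BMAd-DTA mice the lowest was 3.29, the median 3.95 and the highest 5.17 CPM. The control values spread less (coefficient of variation 5.94%, against 17.0% in BMAd-DTA mice) and lay inside the BMAd-DTA range. Hhip had only 58 to 97 read pairs per library, and whether the spread differed between the groups was not tested. For Hhip, the log2 fold change was 0.14 (SE 0.16; 95% interval -0.204 to 0.49; adjusted p 0.718 by edgeR).

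Ratios between members taken within a library do not depend on how libraries are scaled. The ratio of Gli1 to Gli3 was 1.28 ± 0.198 in controls (SD, n = 4) and 1.58 ± 0.404 in BMAd-DTA mice (SD, n = 7), and 3 of 7 BMAd-DTA mice exceeded every control. The difference was 0.28 on the log2 scale (two-sided exact permutation test over 330 splits, p = 0.200; 0.239 after Benjamini-Hochberg adjustment over 2 ratios). For Ptch1 to Smo, the ratio was 0.904 ± 0.101 in controls and 0.826 ± 0.0978 in BMAd-DTA mice. That difference was -0.13 on the log2 scale (exact permutation p = 0.239, 0.239 adjusted). With 1 library left out, the Gli1 to Gli3 difference was 0.18 (without BMAd-DTA replicate 3) to 0.36 (without BMAd-DTA replicate 7), and the Ptch1 to Smo difference was -0.21 (without Control replicate 4) to -0.08 (without Control replicate 1). By the permutation test neither difference was told apart from 0, and 0.00303 is the smallest p that these group sizes allow.

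Between genes, levels are comparable only per length, here as CPM per kilobase of the union of a gene's exons in GENCODE M21. In controls the level was highest for Gas1 (14.9 ± 2.39; SD, n = 4), followed by Smo (6.80 ± 0.481), Boc (4.17 ± 1.0), Ptch1 (2.42 ± 0.162) and Gli1 (1.52 ± 0.241). Gli2 (1.08 ± 0.113), Ihh (0.888 ± 0.281), Gli3 (0.621 ± 0.0755) and Hhip (0.408 ± 0.0242) followed. The co-receptors and the transducer were thus measured at higher levels than the factors, the ligand and the inhibitor. Gli2 and Ihh, and Ihh and Gli3, did not differ beyond the spread of the 4 controls. In BMAd-DTA mice Ihh (1.36 ± 0.353; SD, n = 7) stood above Gli2 (1.18 ± 0.213), with overlapping ranges, and the other ranks were the same. The BMAd-DTA ranges also overlapped for Smo and Boc, Ptch1 and Gli1, Ihh and Gli3, Gli2 and Gli3, and Gli3 and Hhip.

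**Figure D2:**
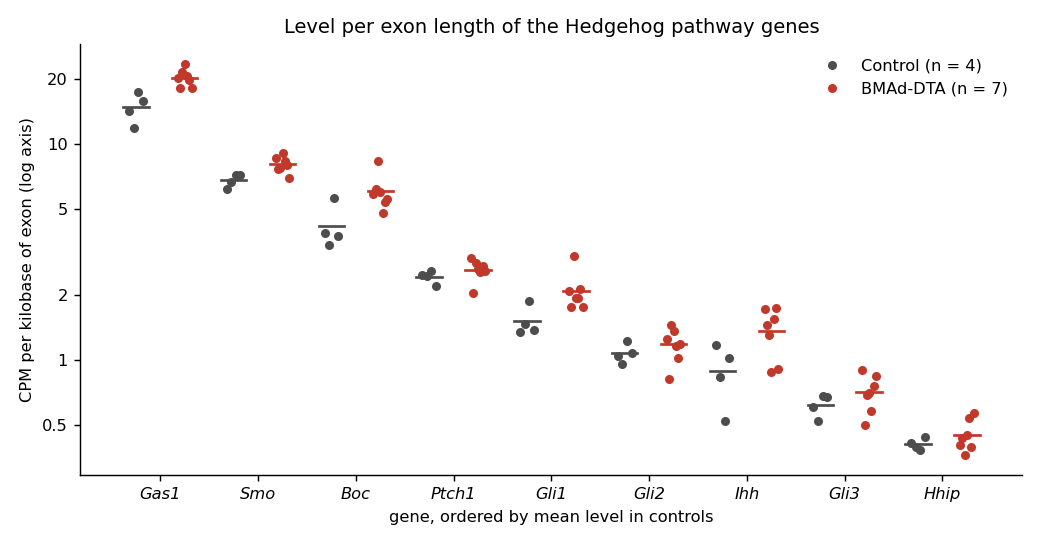
CPM per kilobase of exon (log axis) of the 9 Hedgehog pathway genes in each Control (grey, n = 4) and BMAd-DTA (red, n = 7) library, with the group mean as a line. Genes run from Gas1, at a mean of 14.9 in controls, to Hhip, at 0.408, and in controls the points overlap between neighbours only for Gli2 and Ihh and for Ihh and Gli3.

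Reads of neighbouring genes were considered for each member. Gli1 shares 62 bases with Arhgap9 on the opposite strand, a gene with 1739 to 2059 read pairs per library, and 79.3% of the stranded pairs on Gli1 were on the strand used here. With counts made regardless of strand, the log2 fold change of Gli1 was 0.40 (adjusted p 0.249 by edgeR). Gas1 overlaps the noncoding gene Gm48488 on the opposite strand over 684 bases. Gm48488 as a whole had 0 to 12 pairs per library, and the count of Gas1 made regardless of strand was 0.828 of its stranded count. Without regard to strand the log2 fold change of Gas1 was 0.45, with an adjusted p of 0.0721 by edgeR. For the other members at least 95.3% of pairs were on the strand used.

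The rest of the pathway was followed in 3 lists. Of 31 further genes that carry or regulate the signal, 29 were tested, 19 with a positive and 10 with a negative log2 fold change (median 0.11). At an unadjusted p under 0.05, 6 were higher (20.7%, against 7.89% of all genes tested) and 1 was lower (3.45%, against 8.53%). The genes with the largest positive and negative fold changes were Scube3, which helps release lipid-bearing ligand (log2 fold change 0.69, SE 0.31, adjusted p 0.283 by edgeR), and Scube2 (-0.54, SE 0.41, adjusted p 0.562).

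None of the genes of this list passed the adjusted threshold by edgeR. Scube1, Kif7 and Evc had every BMAd-DTA library above every Control library, as 1.78% of all genes tested did. Scube1, also a secreted ligand carrier, lay at 10.6 to 15.9 CPM in controls and at 17.1 to 27.3 CPM in BMAd-DTA mice (log2 fold change 0.53, SE 0.15, adjusted p 0.112). Kif7, the kinesin that organises the tip of the cilium for Gli regulation, lay at 3.07 to 4.82 CPM in controls and at 5.42 to 6.88 CPM in BMAd-DTA mice (0.56, SE 0.16, adjusted p 0.11). Evc, a ciliary partner of Smo, was likewise higher in all 7 BMAd-DTA mice than in any control (13.8 ± 1.41 against 17.1 ± 2.34 CPM; 0.31, adjusted p 0.200). Its companion Evc2 had a log2 fold change of 0.18 with an adjusted p of 0.442.

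Btrc, part of the ubiquitin ligase that processes Gli proteins, was the 1 gene of that list lower at an unadjusted p under 0.05. It was at 62.3 ± 6.12 CPM in controls and 47.9 ± 7.30 CPM in BMAd-DTA mice (log2 fold change -0.38, SE 0.11, adjusted p 0.120 by edgeR). The inhibitor Sufu (0.05, adjusted p 0.856), the ligand exporter Disp1 (0.15, adjusted p 0.387) and the ciliary receptor Gpr161 (-0.13, adjusted p 0.826) gave smaller differences.

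Genes of the cilium itself were divided, with 6 of 12 higher and 6 lower (median 0.01). At an unadjusted p under 0.05, 0 were higher and 2 were lower (16.7%, against 8.53% of all genes tested). Ift140, a subunit of the retrograde transport complex, had the largest negative fold change, with 113 ± 15.8 CPM in controls and 83.4 ± 11.3 CPM in BMAd-DTA mice (log2 fold change -0.44, SE 0.11, adjusted p 0.0820 by edgeR). Ift80 followed (-0.27, adjusted p 0.205), and Kif3a had the largest positive value (0.12, adjusted p 0.656).

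Of 20 genes reported elsewhere as Hedgehog targets, 18 were tested, 13 with a positive and 5 with a negative fold change (median 0.18). At an unadjusted p under 0.05, 6 were higher (33.3%, against 7.89% of all genes tested) and 0 lower (against 8.53%). Many of them also respond to other signals in bone. Foxf2, a mesenchymal forkhead factor, had the largest positive fold change, at 1.02 ± 0.406 CPM in controls and 2.09 ± 0.586 CPM in BMAd-DTA mice (log2 fold change 1.03, SE 0.32, adjusted p 0.131 by edgeR). Its relative Foxf1 had 92 read pairs in all and did not pass the filter. Sfrp1, a secreted Wnt antagonist, was at 18.6 to 41.5 CPM in controls and 40.4 to 58.6 CPM in BMAd-DTA mice, with 1 BMAd-DTA mouse below the highest control (0.83, SE 0.20, adjusted p 0.0799).

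Ccnd1, a cell cycle gene, was at 37.8 ± 2.34 CPM in controls and 52.1 ± 12.4 CPM in BMAd-DTA mice (0.46, adjusted p 0.175 by edgeR). Nr2f2 had the largest negative fold change of the targets (-0.29, adjusted p 0.426), and Nkx3-2, a chondrocyte factor, had a value of -0.23 with an adjusted p of 0.755. DESeq2 called 7 of the 61 genes of the 3 lists that had a row, beside 5.42% of all genes it adjusted. They were Scube1, Kif7, Foxf2, Sfrp1 and Wnt5a with positive and Btrc and Ift140 with negative fold changes.

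**Figure D3:**
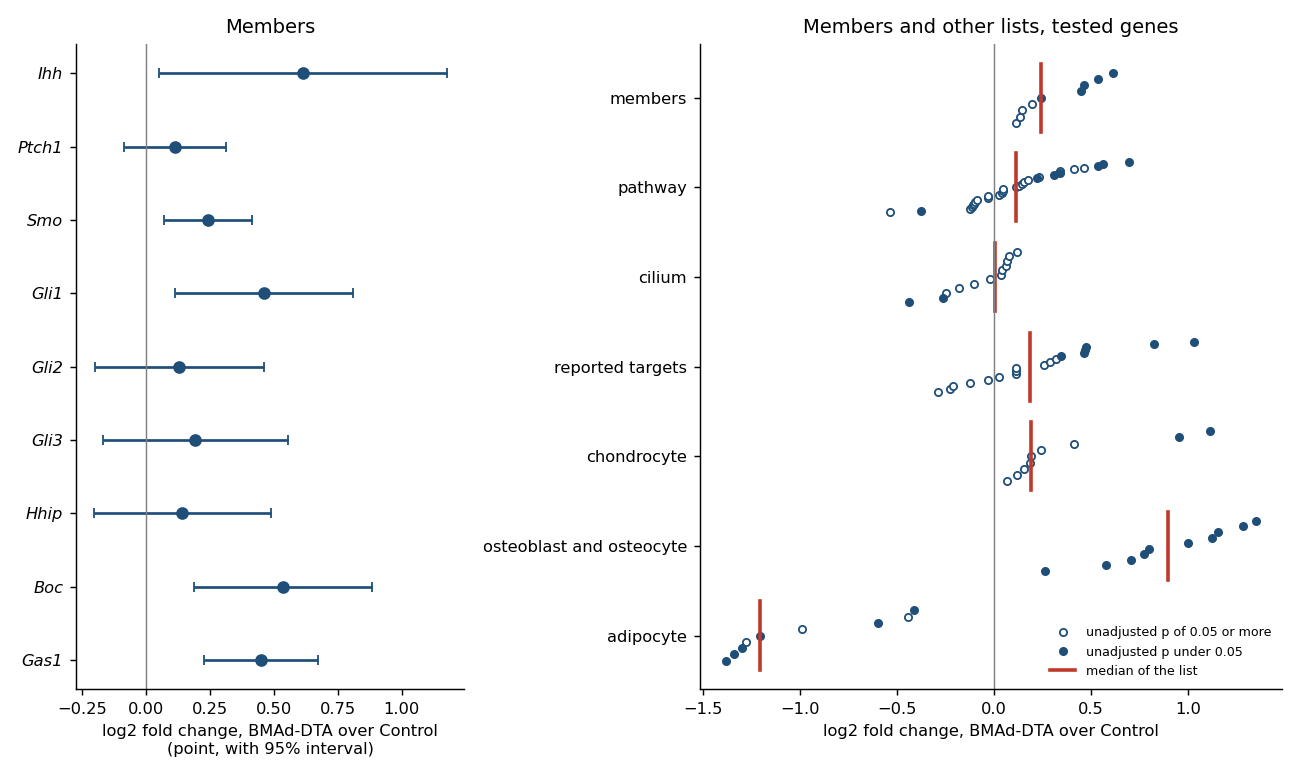
Log2 fold changes of BMAd-DTA over Control: left, the 9 members with their 95% intervals; right, the tested genes of the members, the 3 other pathway lists and 3 lists of cell type markers, filled where the unadjusted p was under 0.05, with the median of each list in red. The 9 members lie to the right of 0 with a median of 0.24, the cilium genes lie on both sides, and the osteoblast and osteocyte markers have a median of 0.90.

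Some of the marker lists of cells that could hold these transcripts differed between genotypes as well, and others did not. All 10 osteoblast and osteocyte markers had a positive log2 fold change at an unadjusted p under 0.05, and their summed level was 2025 to 7846 CPM in controls and 9857 to 21070 CPM in BMAd-DTA mice, without overlap. Sp7, the osteoblast transcription factor, was at 23.3, 40.1, 52.5 and 50.1 CPM in controls and at 66.5 to 128 CPM in BMAd-DTA mice (log2 fold change 1.12, adjusted p 0.0675 by edgeR). Alpl, a phosphatase of mineralising cells, was the 1 marker of this list called (1.15, adjusted p 0.0326). All these fold changes but that of Runx2 (0.26) were larger than those of Gas1, Gli1 and Boc.

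Chondrocyte markers were all positive too, with 9 of 9 tested and 2 at an unadjusted p under 0.05, in a list of 11. Their summed level was 747 to 1076 CPM in controls and 1088 to 1363 CPM in BMAd-DTA mice. Within it, Col2a1 was at 105 to 271 CPM in controls and 393 to 580 CPM in BMAd-DTA mice (log2 fold change 1.11, adjusted p 0.0675 by edgeR), while Col10a1, the collagen of hypertrophic cartilage next to the Ihh-expressing zone, had a value of 0.15 (adjusted p 0.813) and Acan 0.18 (adjusted p 0.686). Tendon and periosteum markers were positive in 8 of 8, 4 of them at an unadjusted p under 0.05, with sums of 1764 to 3981 and 2808 to 4630 CPM. Adipocyte markers were negative in 9 of 9, 6 of them at an unadjusted p under 0.05, with sums of 719 to 1443 and 287 to 929 CPM. Retn was the 1 marker of this list called (-1.38, adjusted p 0.0205 by edgeR). Marrow stroma markers were divided, with 5 of 8 higher and 3 lower (median 0.04) and 1 in each direction at an unadjusted p under 0.05, and their sums overlapped (3350 to 5033 CPM in controls and 3377 to 5362 CPM in BMAd-DTA mice). Among them the fold change on the log2 scale was -0.48 for Lepr (adjusted p 0.182 by edgeR), 0.37 for Pdgfra (adjusted p 0.136) and 0.02 for Cxcl12 (adjusted p 0.974). No marker with a row was at 0 in all libraries. The part of these cell types in the members' values was not tested.

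Muscle entered some bones and not others, with muscle markers summing to 15.0 to 1250 CPM in controls and 16.2 to 985 CPM in BMAd-DTA mice. With the muscle score as a covariate the log2 fold changes of Gas1 (0.44), Boc (0.53), Gli1 (0.46), Smo (0.23) and Ihh (0.57) were close to those above. With the chondrocyte score as a covariate they were 0.29, 0.48, 0.35, 0.17 and 0.67 in the same order, only Gas1 had an unadjusted p under 0.05 (0.0413), and the lowest adjusted p among the members was 0.802. That score was itself higher in BMAd-DTA mice, so genotype and score share part of their information in this fit.

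Within groups, the 9 members did not all vary together. On log2 CPM centred on the group mean, over 11 libraries that share their RNA and scaling between genes, the order of the pairs depended on the measure and on 1 library. By Pearson's r the highest pair was Gli1 and Boc (r 0.77), but its Spearman rho was 0.25 and its r was 0.56 without BMAd-DTA replicate 3, where Ptch1 and Gli2 (0.72) and Smo and Gas1 (0.71) were higher. By Spearman's rho the highest pair was Ptch1 and Gli1, both known as readouts of the pathway (rho 0.80, r 0.56, r 0.59 without that library). Gli1 and Hhip, which the pathway also induces in many tissues, ran in opposite directions (r -0.69, rho -0.77, r -0.53 without that library). By Pearson's r, Ihh had negative values with all 8 other members. They ran from -0.08 with Ptch1 (rho 0.05) to -0.43 with Boc (rho -0.36, r -0.55 without that library). These are descriptions of 11 libraries and carry no test.

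Centred in the same way, the osteoblast and osteocyte score followed Gli1 (r 0.63) and Boc (r 0.64), with r of 0.45 and 0.48 without BMAd-DTA replicate 3. Without that library Gli1 had higher values with the adipocyte score (r 0.61, against 0.18 with it) and the marrow stroma score (r 0.60, against -0.09 with it), so which score Gli1 followed rested on 1 mouse. The tendon and periosteum score followed Gli2 (r 0.82), Gli3 (r 0.67) and Ptch1 (r 0.66). With Gli1 (r 0.57) and Boc (r 0.52) its values were not far below those of the osteoblast and osteocyte score. The marrow stroma score had its highest value with Smo (r 0.71, and 0.75 without BMAd-DTA replicate 3). The chondrocyte score had its highest value with Gas1 (r 0.55) and a value near 0 with Ihh (r -0.10).

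Among 11931 genes with a mean of at least 5 CPM, those whose log2 CPM was most like that of Gli1 over the 11 libraries were Ankrd13b (r 0.95), 1110051M20Rik (r 0.93), Slit3 (r 0.93), Zfp462 (r 0.92) and Nudt22 (r 0.92). Without BMAd-DTA replicate 3, the library highest in Gli1, these values were 0.77 to 0.91. Of the 5 genes, 1 (Ankrd13b) was also among the 5 most like Gli1 by Spearman's rho. None of them passed the adjusted threshold between genotypes by edgeR, the largest fold change being that of Zfp462 (0.40, adjusted p 0.312), though Slit3 (0.32) and Nudt22 (0.31) had an unadjusted p under 0.05.

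The letters of the Gli binding motif were searched in promoters. Windows of RefSeq (GRCm38.p6) that run from 250 bases before to 50 after a gene's start were present for 7 of the 9 members. Gli1 and Boc had no window, and that of Ptch1 (63565686 to 63565985) lay inside the gene as placed above. The motif GACCACCCA on either strand was in 0.253% of 32851 windows and its looser form GACCNCCCA, which contains it, in 0.977%. Neither was in a window of the 7 members or of the other pathway genes with one. With so few of all windows holding the motif, its absence from 7 is uninformative about these genes. It says only that these letters are not in these windows.

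**Figure D4:**
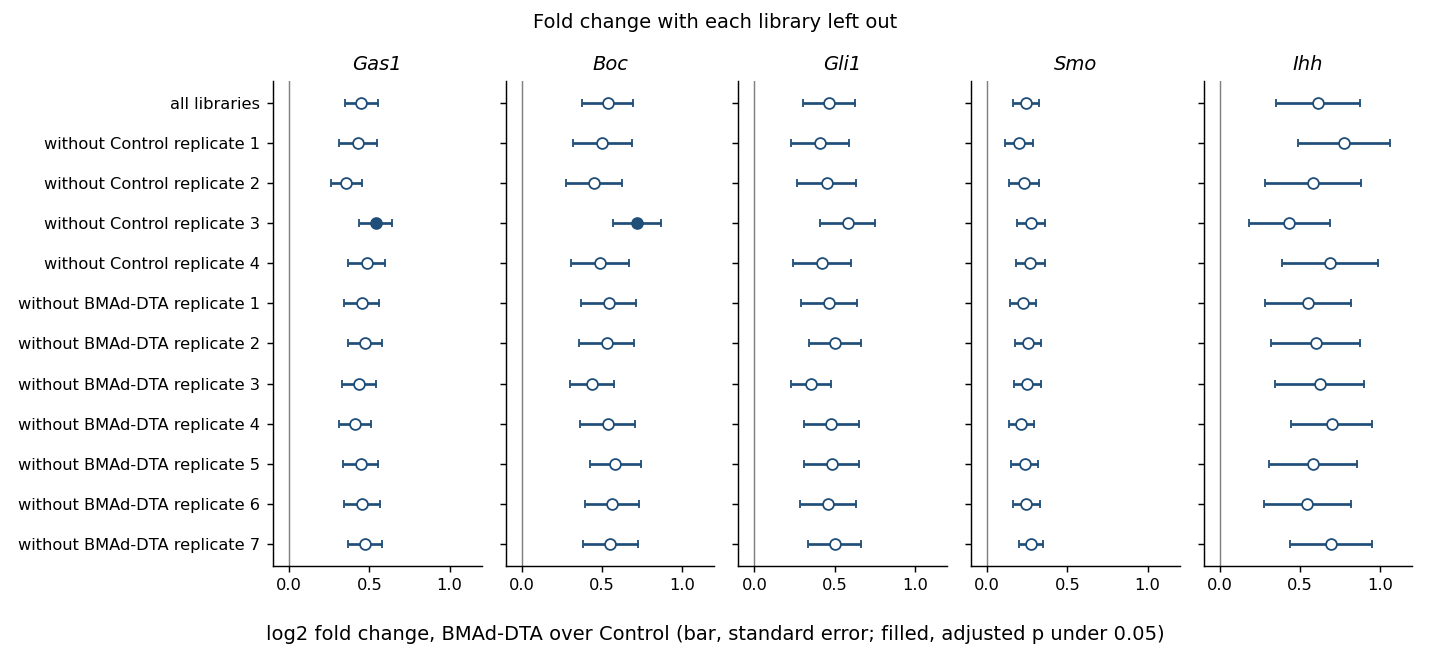
Log2 fold change (BMAd-DTA over Control, point, with its standard error as bar) of Gas1, Boc, Gli1, Smo and Ihh with all libraries and with each of the 11 left out in turn, filled where the adjusted p was under 0.05. All points lie above 0, and filled points occur only without Control replicate 3, for Gas1 (0.54) and Boc (0.72). Over all genes tested, that fit called 292, against 13 with all libraries.

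All 9 members kept a positive log2 fold change in each of the 11 fits that left out 1 library. The number with an unadjusted p under 0.05 was 4 or 5 of 9 in these fits, but not always the same genes. Over all genes tested, in either direction, it was lowest without Control replicate 1 (1784 of 16766) and highest without Control replicate 3 (3283 of 16757). By edgeR the highest unadjusted p was 0.00317 for Gas1, 0.0229 for Boc, 0.0408 for Gli1 and 0.0361 for Smo. For Ihh it was 0.109, without Control replicate 3. Ihh also missed that limit without Control replicate 2 and without BMAd-DTA replicate 1, 2, 5 or 6. Gas1 ranged from 0.36 without Control replicate 2 to 0.54 without Control replicate 3, Boc from 0.44 to 0.72, Gli1 from 0.35 to 0.58, Smo from 0.20 to 0.27 and Ihh from 0.43 to 0.78. Smaller values moved more in proportion, with Ptch1 from 0.07 without Control replicate 4 to 0.17 without BMAd-DTA replicate 2 (unadjusted p 0.0406, adjusted p 0.311 by edgeR), Gli2 from 0.08 to 0.20, Gli3 from 0.12 to 0.26 and Hhip from 0.08 to 0.19. The fits share most of their libraries and are not independent of each other.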

How the data were processed

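Total RNA of powdered distal tibiae was sequenced as stranded paired-end libraries. Per the methods and the labels, the authors checked reads with FastQC 0.11.9, aligned them to mm10 with STAR and deposited raw counts per gene for each library and in a merged table. The annotation release is not given in the sources used here. Identifiers were joined to GENCODE M21 on GRCm38 (99.9% matched). The merged table equals the stranded column of the per-library counts, and multimapping pairs (6.68% to 9.07% of pairs) are not in it.

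Counts were tested with edgeR 4.0.16 in R 4.3.3 (filterByExpr, TMM, quasi-likelihood, genotype only, two-sided, Benjamini-Hochberg over 16496 genes). The standard error is the log2 fold change over the square root of F, and 95% intervals follow from it. Alternatives used DESeq2 1.42.0 and limma 3.58.1. The code was tested on simulated data, with its limit for the share of changed genes recovered lowered after the first outcome was seen. Marker scores are mean log2 CPM with a prior count of 2.

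The named genes are all members, the largest positive and negative fold change of each other pathway list, a fixed set of pathway genes and the 5 genes most like Gli1. Scube1, Btrc, Ift80, Sfrp1 and Wnt5a fall outside that rule and were named after their values were seen. The members and lists were chosen with earlier results of these data known, and some correlations were repeated without BMAd-DTA replicate 3 after seeing the data. No 2 libraries of a group agreed within counting noise (smallest mean chi-square per gene 18.3). Protein sequences of the Gli factors were not analysed here. The values of 1 listed gene are not reported here.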

Additional observations from a re-analysis of the deposited data

Results flagged for a closer look

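A single library stood apart in 2 of the 18 groups examined (9 genes in 2 groups of mice), by Dixon's criterion, which chance meets in about 1 of 20 groups. In BMAd-DTA replicate 3, Gli1 was at 15.1 CPM, where the next BMAd-DTA mouse was at 10.6 CPM and the gap took 0.706 of the group's range. In the same library Boc was at 37.3 CPM, with the next mouse at 27.5 CPM and a gap of 0.617 of the range. Both gaps exceed the limit for 7 samples. That library also had the highest Sp7 (128 CPM), Alpl (425 CPM) and Col1a1 (18040 CPM) of all 11, and its Adipoq level was 10.2 CPM. The part of these in its Gli1 and Boc levels was not tested. Without it the log2 fold change was 0.35 for Gli1 and 0.44 for Boc.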

How the results depend on the processing

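All 9 members had a positive log2 fold change under all 10 alternatives and all 11 fits without 1 library, and no value reversed. DESeq2 called 2 members, Boc (0.53, adjusted p 0.0296) and Gas1 (0.45, adjusted p 0.00365), where edgeR called 0, limma-voom with quality weights called 1, Gas1 (0.57, adjusted p 0.0403), and leaving out single libraries gave 0 to 2. Over the 10 alternatives the adjusted p was 0.0296 to 0.813 for Boc and 0.00365 to 0.802 for Gas1, with the highest value under the chondrocyte covariate. Without a library, Boc was 0.44 to 0.72 and Gas1 0.36 to 0.54. Of the other pathway genes DESeq2 called 7, limma-voom 2 and the fits without 1 library 0 to 1 (Sfrp1, without Control replicate 4). Over all genes edgeR called 13, DESeq2 845, limma-voom 238, edgeR with RLE scaling 20, with the muscle covariate 3 and with the chondrocyte covariate 0 (1011 at an unadjusted p under 0.05), and without a library 0 to 292. The cause of these differences was not tested. Of the genes most like Gli1, 1 of 5 was shared between Pearson's and Spearman's measures. The order of levels per length did not change with the longest transcript as length, although Boc and Ptch1 then overlapped in controls. No paired analysis was possible because the labels give nothing that pairs a Control with a BMAd-DTA mouse. The replicate numbers used here count the mice of each group in the order of their samples and are not from the labels. With 27 to 90 read pairs per library, Ihh had the lowest counts of the members, and Hhip came next with 58 to 97. Their coefficients of variation in controls were 31.6% and 5.94%. The part of depth in the spread of Ihh was not tested.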
